A study of Homo sapiens with 2 samples.

Results

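The genes described here encode the proteins of the cytosolic ribosome. They were taken by symbol from the RefSeq protein-coding genes of chromosomes 1 to 22: RPL or RPS followed by digits, with A, X, L or P variants, plus RPLP0, RPLP1, RPLP2 and RPSA, and without the RPS6K kinases. The rule found 81 genes of 19122, of which 50 belong to the large subunit, 31 to the small subunit, and 8 of the 81 are paralogues (symbols ending in L, L1 or AL, such as RPL10L and RPS27L). Their DNase I hypersensitivity was read in Saos-2 and U2OS, established human osteosarcoma cell lines that were grown without a treatment named in the labels. Each line gave 1 DNase-seq library, in which nuclei were digested with DNase I for 3 min at 37 °C and the released fragments were amplified with 8 to 10 PCR cycles. With no replicates, the values compare these 2 libraries, and no test or p-value is given.

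The ribosome joins a large and a small subunit, each built from ribosomal RNA and many proteins that are needed in matched amounts. The genes of these proteins lie scattered over the chromosomes, are transcribed in nearly every growing cell, and typically start within a short run of pyrimidines. The resulting 5′ terminal oligopyrimidine (TOP) tract of the mRNA makes its translation follow growth signals through mTOR. Many of the genes also carry small nucleolar RNA (snoRNA) genes in their introns, and most have processed pseudogenes elsewhere in the genome.

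A hotspot is an interval that the authors called as rich in DNase I cuts at a false discovery rate of 0.05 on hg38, in each library separately. The Saos-2 list held 51556 hotspots over 14.2 Mb and the U2OS list 63388 over 17.8 Mb, with median widths of 238 and 248 bp. Each hotspot carries the authors' own −log10 value, called its significance below, which runs from 1.30 to 100 and was used only to describe and rank hotspots within a list, as a percentile. The number of reads per library is unknown from the lists, so a difference in depth and a difference in accessibility cannot be told apart. Shares of genes have Wilson 95% intervals, which cover counting error only. As a check of the labels, RB1, whose product is known to be defective in Saos-2, held 3 hotspots in Saos-2 and 1 in U2OS, so this count does not separate the labels. Of the 8 osteoblast lineage markers, RUNX2, the master regulator of the lineage, had 10 hotspots within 1 kb in Saos-2 and 6 in U2OS, SP7 had 1 and 0, ALPL 4 and 10, and COL1A1 0 and 3, SPARC 2 and 2 and BGLAP 1 and 1, while COL1A2 and IBSP had none in either line. Markers of other cell types held hotspots too. Within 1 kb, the blood markers PTPRC, SPI1 and CD3E had 4 and 5, 2 and 3, and 1 and 1. The epithelial markers KRT8, CDH1 and KRT18 had 4 and 13, 3 and 8, and 0 and 2, and EPCAM had none. Of the hepatocyte markers, APOA1 had 1 and 2 and ALB none. The counts at these lists do not set the osteoblast lineage apart from the others.

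The members share their start sequence. RefSeq (GRCh38.p14) windows from 250 bases before to 50 bases after each listed start were at hand for 64 of the 81 members, with 78 starts in all and 10 members with 2 or more. A C followed by at least 4 pyrimidines began exactly at a listed start in 44 of the 64 (68.8%), against 6.23% of the 15100 protein-coding genes with a listed start. With up to 5 bases of tolerance the share was 52 of 64 (81.2%), against 28.0%. The median of the longest pyrimidine run that began within 10 bases of the start was 11 bases in the members and 5 in all genes. The sequences below show this for members on which the later results turn, as 60 bases before the start and the first 25 bases from it, 5′ to 3′ on the strand of the gene, with that longest run in capitals. RPLP0 builds the stalk that recruits elongation factors, RPSA is also known as the laminin receptor precursor, RPL11 is a 5S particle protein that binds MDM2, RPS6 is the classical substrate of the S6 kinases, and RPS19 is the gene most often altered in Diamond-Blackfan anaemia.
RPLP0 (chr12:120201087-120201171, minus strand): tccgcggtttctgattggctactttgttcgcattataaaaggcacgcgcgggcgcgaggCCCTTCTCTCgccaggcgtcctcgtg
RPSA (chr3:39406660-39406744, plus strand): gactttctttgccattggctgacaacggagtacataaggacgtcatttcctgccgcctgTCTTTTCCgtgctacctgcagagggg
RPL11 (chr1:23691746-23691830, plus strand): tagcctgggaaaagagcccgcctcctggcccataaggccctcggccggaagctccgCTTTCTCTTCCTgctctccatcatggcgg
RPS6 (chr9:19380212-19380296, minus strand): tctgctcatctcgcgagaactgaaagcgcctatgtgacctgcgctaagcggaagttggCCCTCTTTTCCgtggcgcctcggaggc
RPS19 (chr19:41860195-41860279, plus strand): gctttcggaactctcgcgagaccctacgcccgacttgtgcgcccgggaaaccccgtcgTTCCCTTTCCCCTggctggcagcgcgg
RPL7A (chr9:133348158-133348242, plus strand): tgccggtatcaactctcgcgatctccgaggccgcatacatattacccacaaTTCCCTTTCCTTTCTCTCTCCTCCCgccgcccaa
RPL22 (chr1:6199571-6199655, minus strand): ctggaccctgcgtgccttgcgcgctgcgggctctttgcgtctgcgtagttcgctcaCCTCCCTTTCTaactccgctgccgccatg
RPS13 (chr11:17077643-17077727, minus strand): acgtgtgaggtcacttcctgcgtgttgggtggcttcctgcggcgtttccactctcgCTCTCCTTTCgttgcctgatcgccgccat
RPL13A (chr19:49487548-49487632, plus strand): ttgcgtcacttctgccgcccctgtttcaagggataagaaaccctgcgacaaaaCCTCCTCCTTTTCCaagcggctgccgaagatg
RPS14 (chr5:150449715-150449799, minus strand): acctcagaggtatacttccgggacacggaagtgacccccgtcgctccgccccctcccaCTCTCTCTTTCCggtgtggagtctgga
In RPL7A the run was 25 bases long, in RPL13A 14, in RPS19 13, in RPS14 and RPL11 12, and in RPSA 8. All 10 of these starts are ones at which the tract begins. By this choice each lies inside such a run and has a C as its first base. RPL11 has another listed start, at chr1:23691779, where the tract does not begin. RPL3 and RPS26, also described later, have no tract that begins exactly at their listed start and are not shown.

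Not all members had the tract at a listed start. It began at a listed start in 43 of the 58 members that are not paralogues (74.1%) and in 1 of the 6 paralogues with a listed start, RPL22L1. For contrast with the sequences above, 3 paralogues without it at a listed start and RPS29, a non-paralogue without it there, are shown next. The frame is the same, again with the longest run in capitals. RPS29 has 1 listed start, so a tract at a start that is not listed would be missed. RPL10L is the testis paralogue of RPL10, RPL7L1 takes part in ribosome assembly, and RPS27L is the paralogue of RPS27.
RPL10L (chr14:46651757-46651841, minus strand): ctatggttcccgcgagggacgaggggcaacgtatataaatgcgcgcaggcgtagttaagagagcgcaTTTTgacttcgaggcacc
RPL7L1 (chr6:42879556-42879640, plus strand): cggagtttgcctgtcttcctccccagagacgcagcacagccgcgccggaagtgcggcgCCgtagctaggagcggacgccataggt
RPS27L (chr15:63157453-63157537, minus strand): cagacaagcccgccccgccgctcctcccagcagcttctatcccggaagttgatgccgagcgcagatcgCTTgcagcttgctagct
RPS29 (chr14:49598686-49598770, minus strand): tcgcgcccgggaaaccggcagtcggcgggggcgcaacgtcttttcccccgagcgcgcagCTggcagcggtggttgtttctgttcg
The runs at the starts shown for these 4 genes were 4, 2, 3 and 2 bases long.

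**Figure D1:**
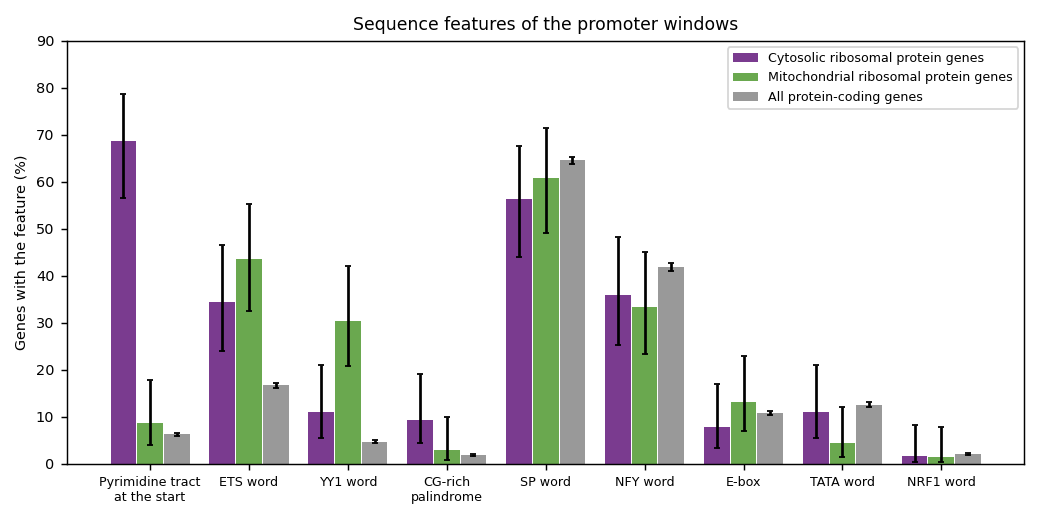
Share of genes (%, vertical axis) whose listed start windows hold each sequence feature, for cytosolic ribosomal protein genes, mitochondrial ribosomal protein genes and all protein-coding genes with a listed start; bars give the share and lines the Wilson 95% interval. The pyrimidine tract at the start was found in 68.8% of the cytosolic genes, 8.70% of the mitochondrial ones and 6.23% of all genes.

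The windows were searched for 8 words as exact matches on both strands; a match describes these letters and does not show that a factor binds. The ETS family word CCGGAAG was in 22 of the 64 members (34.4%, against 16.7% of all genes), the YY1 word AAGATGGC in 7 (10.9%, against 4.65%) and the palindrome CTCGCGAG in 6 (9.38%, against 1.79%). Shares close to or below those of all genes were seen for the SP family word GGGCGG (56.2% against 64.6%), the NFY word CCAAT (35.9% against 41.8%), the E-box CACGTG (7.81% against 10.8%), the TATA word TATAAA (10.9% against 12.5%) and an NRF1 palindrome (1.56% against 2%). The searched words do not contain each other, although neighbouring matches may share bases. The median GC content of the windows was 60.2% in members and 62.4% in all genes, and the median number of CpG dinucleotides was 25 and 22.

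The YY1 word lay just downstream of the start in 6 of its 7 members, at positions 11 to 28, counted from 1 at the start base and from -1 upstream of it, in RPL13A, RPL21, RPL22L1, RPL24, RPL35A and RPS3; in RPS28 it lay upstream, at position -142. The next sequences show it, in capitals and on the opposite strand, in 3 members whose hotspots are described later.
RPL24 (chr3:101686694-101686778, minus strand): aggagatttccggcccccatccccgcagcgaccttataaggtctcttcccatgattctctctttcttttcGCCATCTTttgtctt
RPL35A (chr3:197950130-197950214, plus strand): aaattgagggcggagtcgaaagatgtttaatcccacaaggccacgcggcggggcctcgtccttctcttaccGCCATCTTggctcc
RPL21 (chr13:27251498-27251582, plus strand): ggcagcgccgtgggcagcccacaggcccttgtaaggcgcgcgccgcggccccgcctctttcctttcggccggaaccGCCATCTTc
The ETS word is shown in capitals in 3 further members, where it lay between positions -55 and -32.
RPL31 (chr2:101002229-101002313, plus strand): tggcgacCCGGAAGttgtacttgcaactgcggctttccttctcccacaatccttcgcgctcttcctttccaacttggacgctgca
RPS25 (chr11:119018319-119018403, minus strand): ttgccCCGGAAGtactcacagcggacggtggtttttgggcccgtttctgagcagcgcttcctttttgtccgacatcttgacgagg
RPS10 (chr6:34426045-34426129, minus strand): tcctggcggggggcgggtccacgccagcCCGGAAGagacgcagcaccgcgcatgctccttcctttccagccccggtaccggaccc
CTCGCGAG was found in RPL17, RPL26, RPL27A, RPL4, RPS6 and, at both -67 and -48, in RPS19. The TATA word lay between positions -31 and -26 in RPL10L, RPL22L1, RPL3, RPLP0, RPS28 and RPS3, and at -97 in RPL7A.

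Nearly all members had a hotspot at the gene. Within 1 kb of the gene span, 75 of 81 members had at least 1 hotspot in Saos-2 (92.6%, interval 84.8% to 96.6%), where the share of all protein-coding genes was 65.7%. In U2OS the count was 79 of 81 (97.5%, interval 91.4% to 99.3%), beside 71.8% of all genes. The members are short genes, with a median span of 5015 bp against 24490.5 bp for all genes. Among the 9929 protein-coding genes whose span lies in the range of the members, from 772 to 27723 bp, the shares were 50.7% and 56.7%, a comparison added after seeing the data. Both subunits had similar shares: 46 of 50 large-subunit and 29 of 31 small-subunit genes in Saos-2, and 49 of 50 and 30 of 31 in U2OS. Exactly 1 hotspot lay within 1 kb of 58 members in each line (71.6%), where the shares of all genes were 29.4% and 31.9%. The all-gene shares include longer genes, and for this count a comparison with genes of like span is not given here. Within 10 kb, 77 members had a hotspot in Saos-2 (all genes 75.8%) and 80 in U2OS (82.6%), and no member lacked one in both lines: 1 had it in Saos-2 only (all genes 4.08%) and 4 in U2OS only (10.9%). Over the span itself the counts were 64 in Saos-2 (all genes 61.1%) and 73 in U2OS (67.4%).

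Most members had their hotspot in both lines. Within 1 kb it was called in both for 74 members, beside 61.1% of all genes. Only Saos-2 had it at 1 member, RPL12 (all genes 4.63%), and only U2OS at 5, which were RPL10L, RPL19, RPL39L, RPLP2 and RPS28 (all genes 10.7%). RPS14, whose loss is known from the 5q- syndrome, had none within 1 kb in either line, a state shared by 23.6% of all genes.

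At the start itself the picture was the same. A promoter hotspot, meaning the hotspot with the largest overlap with any listed start window, was present in 57 of the 64 members with a listed start in Saos-2 (89.1%, interval 79.1% to 94.6%; all genes 47.9%). U2OS had one in 60 of 64 (93.8%, interval 85.00% to 97.5%; all genes 52.2%). It was called in both lines for 55 members (all genes 43.6%), in Saos-2 only for RPL12 and RPL7L1 (4.36%), in U2OS only for RPL10L, RPL19, RPL4, RPLP2 and RPS28 (8.64%), and in neither for RPL26L1 and RPS14 (43.4%). For 53 of the 55 the promoter hotspots of the lines overlapped (all genes 97.7%). The other two were RPL6 and RPS23, and at both a second U2OS hotspot at the promoter overlapped the Saos-2 hotspot.

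**Figure D2:**
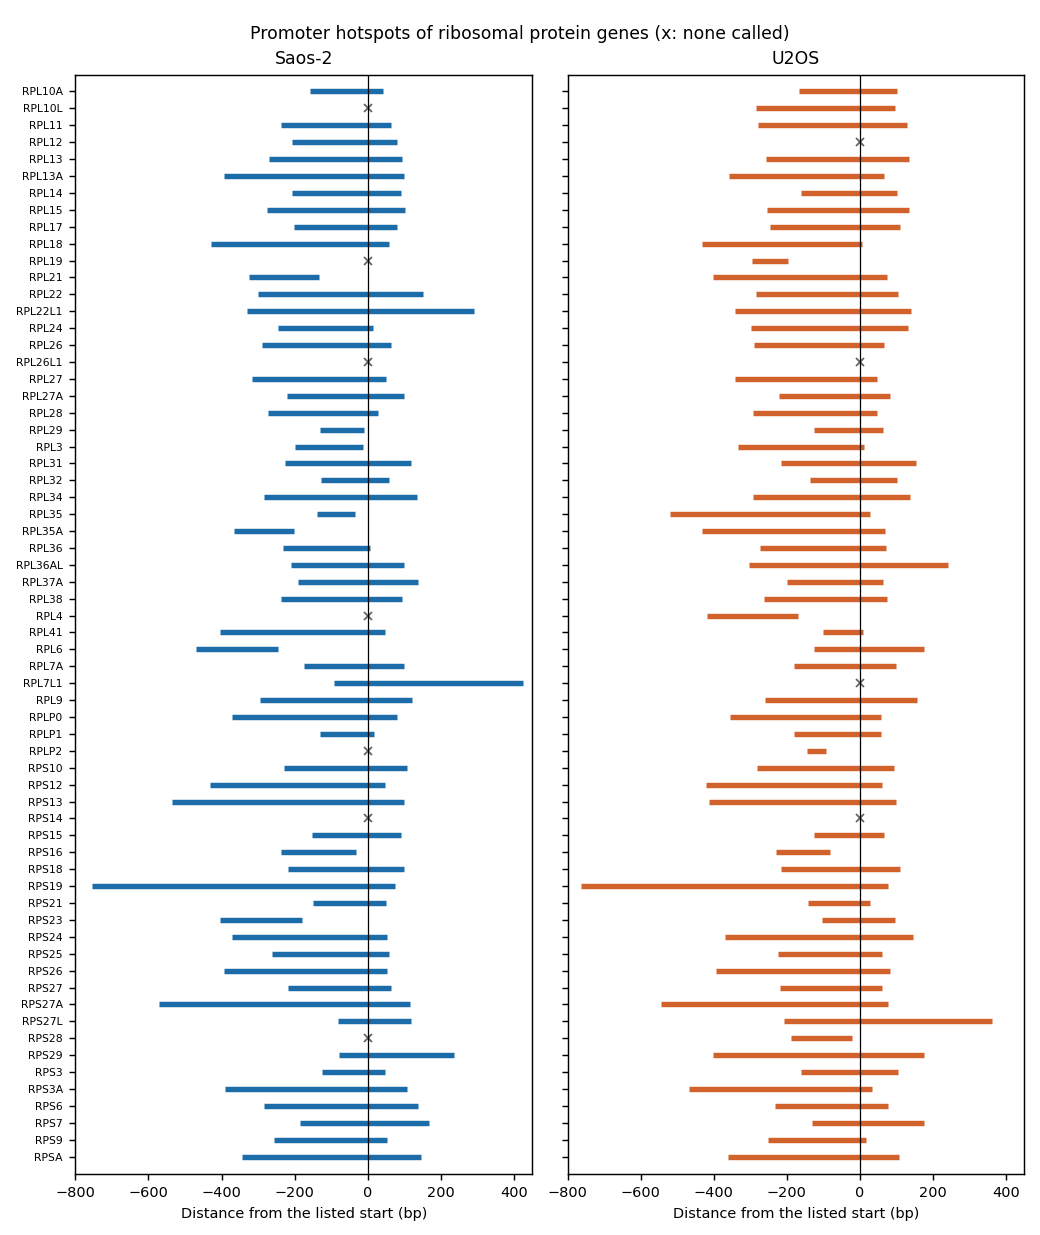
Extent of the promoter hotspot (horizontal bars, bp from the listed start, gene strand left to right) for the 64 members with a listed start, in Saos-2 (left) and U2OS (right); a cross marks members with none. Most bars reach from upstream across the start, and the 7 Saos-2 and 4 U2OS crosses mark members with no promoter hotspot.

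The hotspots sat mostly upstream of the start and reached across it. With the start base as position 0, their median extent in Saos-2 ran from -246 to 79, and in U2OS from -267.5 to 77.5, beside -258 to 84 and -268 to 94 in all genes. They covered the start base in 49 of 57 members in Saos-2 (all genes 85.8%) and in 55 of 60 in U2OS (88.2%). Those that did not were RPL21, RPL29, RPL3, RPL35, RPL35A, RPL6, RPS16 and RPS23 in Saos-2, and RPL19, RPL4, RPLP2, RPS16 and RPS28 in U2OS, so RPS16 was the shared one. In RPL4 a smaller U2OS hotspot of 50 bp did cover the start.

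Given that a promoter hotspot was called, its size was that of promoters at large. The median width was 321 bp in members and 348 bp in all genes in Saos-2, and 357.5 and 370 bp in U2OS. The median significance was 7.38 against 7.28 in Saos-2 and 8.73 against 9.14 in U2OS, and the median percentile in the list was 74.0 against 73.6 and 73.4 against 74.8. In Saos-2, 13 of the 57 member hotspots (22.8%) were above the 90th percentile of the list, beside 25.2% of the promoter hotspots of all genes. In U2OS it was 8 of 60 (13.3%), beside 26.05%.

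The 64 members with a listed start differed widely among themselves, and the order that follows is among these. In Saos-2 the promoter hotspots ranged in significance from 1.67 to 37.0 and in width from 105 to 830 bp, and in U2OS from 1.40 to 35.6 and from 52 to 841 bp. RPL22, a large-subunit gene that has RPL22L1 as its paralogue, had the highest value in Saos-2, with 37.0 over 450 bp, and 14.8 over 390 bp in U2OS. RPS19 had the widest promoter hotspot in both lists, with 830 bp (25.5) in Saos-2 beside 841 bp (20.6) in U2OS. It reached from -754 to 75 in the first line and from -763 to 77 in the second, so the extents nearly coincided.

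RPL13A, whose protein is known outside the ribosome from the interferon-gamma-activated inhibitor of translation, followed in Saos-2 with 22.8 over 493 bp, and had 6.81 over 424 bp in U2OS. RPS3A had 20.5 over 498 bp in Saos-2 and 15.05 over 502 bp in U2OS. RPS13 was among the 5 highest in both lists, with 19.6 over 635 bp in Saos-2 and the highest U2OS value, 35.6, over 512 bp. The 5 highest of the lists thus shared 1 gene.

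In U2OS the next highest was RPS27A, which encodes a ribosomal protein fused to ubiquitin, with 32.4 over 622 bp, beside 9.64 over 689 bp in Saos-2. RPL34 had 31.7 over 430 bp and, in Saos-2, 18.6 over 419 bp. RPL36AL, a paralogue with the start of MGAT2 on the opposite strand within 1 kb, had 25.8 over 546 bp and, in Saos-2, 6.37 over 309 bp. RPS26, which lies at the mRNA exit of the small subunit and is altered in Diamond-Blackfan anaemia, had 22.05 over 478 bp and 8.31 over 446 bp.

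At the low end in Saos-2, RPL35, a protein near the exit of the nascent chain tunnel, had 1.67 over 105 bp, and 4.27 over 549 bp in U2OS. RPL29 had 2.01 over 123 bp and 2.80 over 191 bp. RPL3, a core protein close to the peptidyl transferase centre, had 2.10 over 187 bp and 6.40 over 348 bp. The remaining low values in Saos-2 were those of RPL32, with 2.64 over 189 bp and 3.72 over 239 bp, and of the stalk gene RPLP1, with 2.81 over 149 bp and 4.47 over 240 bp. All 5 belong to the large subunit, as do 50 of the 81 members. All 5 had a wider promoter hotspot in U2OS, as did 60.8% of all genes with one in both lines. These 5 were picked for low Saos-2 values, so the choice itself favours a wider hotspot in the other list. At RPL32 the U2OS hotspot overlapped 2 hotspots of Saos-2, and with hotspots under 150 bp apart merged the widths were 489 and 485 bp.

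At the low end in U2OS stood RPLP2, RPL19 and RPS28, which had none in Saos-2. RPLP2, the partner of RPLP1 in the stalk, had 1.40 over 52 bp, the smallest promoter hotspot of any member, with a second one of 230 bp (3.08) further upstream. RPL19, which forms a bridge to the small subunit, had 1.62 over 99 bp, and RPS28 had 2.28 over 169 bp. RPS16 had 1.90 over 150 bp in U2OS and 3.10 over 206 bp in Saos-2, and RPL41, the shortest ribosomal protein, had 1.98 over 109 bp, the middle one of 3 neighbouring U2OS hotspots, and 3.53 over 453 bp in Saos-2. Where no hotspot was called, cutting below the threshold cannot be told apart from none.

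Among the members chosen for their known roles, RPL3, RPS19 and RPS26 are described above. RPLP0 had 15.8 over 452 bp in Saos-2 and 13.9 over 415 bp in U2OS. RPSA had 12.4 over 491 bp and 14.97 over 470 bp. RPL11 had 7.56 over 303 bp and 11.2 over 409 bp. RPS6 had 19.3 over 424 bp in Saos-2 and 6.17 over 311 bp in U2OS.

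**Figure D3:**
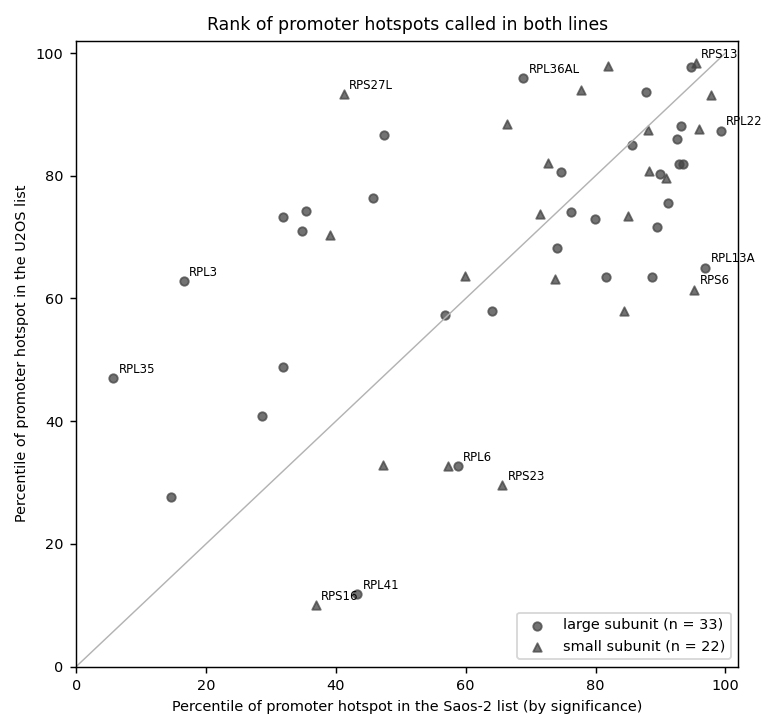
Percentile of the promoter hotspot of each member in the Saos-2 list (horizontal axis) and in the U2OS list (vertical axis), by the authors' significance, for the 55 members with one in both lines; circles are large-subunit and triangles small-subunit genes, and the line marks equal ranks. Points spread on both sides of the line, with RPS27L and RPL3 farthest above it and RPS23 and RPS6 farthest below; the lists differ in length, so a distance from the line is no measure of change. For RPL6 and RPS23 the U2OS hotspot plotted does not overlap the Saos-2 one, and their other U2OS promoter hotspot, which does, has percentile 94.7 and 73.4 in its list, where the Saos-2 hotspots have 58.7 and 65.6.

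The lines ranked the members only loosely alike. Across the 55 members the Spearman correlation of the percentiles was 0.54 (0.63 across the 6578 genes with both), and that of the widths 0.47 (0.61); these are descriptions over genes that share the 2 libraries. The promoter hotspot was wider in U2OS for 33 members (all genes 60.8%) and wider in Saos-2 for 22 (38.6%), with a median log2 ratio of width, U2OS over Saos-2, of 0.03 beside 0.10 for all genes.

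The largest differences in width were in both directions. In RPL35 the 549 bp U2OS hotspot spanned both a 105 bp and a 98 bp hotspot of Saos-2, with a log2 ratio of 2.39. RPL35A, altered in Diamond-Blackfan anaemia, had 165 bp in Saos-2 beside 500 bp in U2OS, where the significance was 2.81 and 8.71. RPS27L had 202 and 569 bp (3.39 and 20.8), and RPL21 had 193 and 478 bp (2.97 and 8.08). In RPL35A and RPL21, whose YY1 words are shown above, the Saos-2 hotspot ended upstream of the start, at positions -202 and -133. The U2OS hotspot reached over the start in both, to 68 and 74. RPL24, RPL13A, RPL22L1 and RPS3 also have the word downstream of the start. In these the Saos-2 hotspot did cover the start, reaching to 14, 98, 292 and 48.

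In the other direction RPL41 had 453 bp in Saos-2 beside 109 bp in U2OS, with a log2 ratio of -2.06. The Saos-2 hotspot overlapped 3 U2OS hotspots of 213, 109 and 62 bp, and with hotspots under 150 bp apart merged the widths were 453 and 479 bp. The next were RPS16 and RPS6, whose values are above, RPL22L1 with 623 and 482 bp (16.5 and 15.5), and RPS15 with 244 and 193 bp (4.77 and 3.13). For the hotspots as called, the log2 ratios toward Saos-2 after RPL41 ran from -0.46 for RPS16 to -0.34 for RPS15. With the same merging at every member, other genes came first in this direction. They were RPS9 with 595 and 270 bp (-1.14), RPS25 with 518 and 287 bp (-0.85) and RPSA with 667 and 470 bp (-0.51). After merging, 33 members were wider in U2OS and 22 in Saos-2.

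Members that are not paralogues and had a call in 1 line only varied in strength. RPL12, which binds at the base of the stalk, had a Saos-2 hotspot of 288 bp (4.60, percentile 55.6) at chr9:127451327-127451614, over its start, and nothing within 10 kb in U2OS. RPL4, which lines the nascent chain tunnel, had 3 U2OS hotspots at its promoter, of 50, 57 and 249 bp, the last with a significance of 4.19. Beyond its other end Saos-2 had a hotspot of 165 bp (2.41), which overlapped a U2OS hotspot of 359 bp (7.70). Unlike these, RPS14 had no call within 1 kb in either line. It had in Saos-2 a hotspot of 93 bp (1.78) and in U2OS hotspots of 232 bp (5.59) and 257 bp (4.74), all more than 1 kb from the gene. The 93 bp hotspot lay inside the 257 bp one. The start of RPS14 carries a TOP tract and 2 ETS words, as in members with a called hotspot.

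The 8 paralogues did not behave as a block. RPL10L, a single short gene of 772 bp, lacked any Saos-2 hotspot within 10 kb and had a U2OS hotspot of 382 bp (15.2, percentile 87.9) at chr14:46651685-46652066, over its start. RPL39L, a paralogue known from testis, likewise lacked any in Saos-2 and had in U2OS a hotspot of 672 bp (11.01) at chr3:187139315-187139986, at the end of its span. RPL3L, the muscle paralogue of RPL3, had in each line a hotspot of 362 bp, 11.7 in Saos-2 and 8.93 in U2OS, which lay outside the span. These 3 genes are known for expression in other tissues.

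Of the more widely expressed paralogues, RPL7L1 had a Saos-2 promoter hotspot of 516 bp (4.87) and none in U2OS. Beyond its other end U2OS had a hotspot of 194 bp (2.82), which overlapped a Saos-2 hotspot of 316 bp (7.62). Saos-2 had another hotspot of 316 bp (4.95) beside that site. RPL26L1 had none at its listed starts in either line. It had 2 hotspots inside the gene that overlapped between the lines, of 352 bp (5.01) in Saos-2 beside 386 bp (10.54) in U2OS, and of 201 bp (3.88) and 265 bp (4.92). RPL22L1, RPL36AL and RPS27L had promoter hotspots in both lines.

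Bases under hotspots within 10 kb of a member sum up the surroundings, including sites of neighbouring genes. The median was 471 bp per member in Saos-2 and 576 bp in U2OS, beside 438 and 550.5 bp for all genes. More bases were covered in U2OS at 52 members (64.2%; all genes 53.6%) and in Saos-2 at 28 (34.6%; all genes 33%), and RPL3L was equal at 362 bp. Of all genes, 13.3% had no hotspot within 10 kb in either line, while every member had one. Such genes count toward neither line, so the all-gene shares are lower for that reason alone. The median difference, U2OS minus Saos-2, was 38 bp, beside 37 bp for all genes, and it ranged from -954 to 1166 bp. At least 2-fold more was covered in U2OS at 16 members (19.8%; all genes 24.6%) and in Saos-2 at 3 (3.70%; all genes 10.7%), which were RPL7L1, RPLP0 and RPL12. Within 1 kb the counts were 49 (all genes 46.4%) and 30 (29.8%), and with at least 2-fold more 15 (21.2%) and 2 (10.2%). At this distance 23.6% of all genes had no hotspot in either line, and of the members only RPS14.

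**Figure D4:**
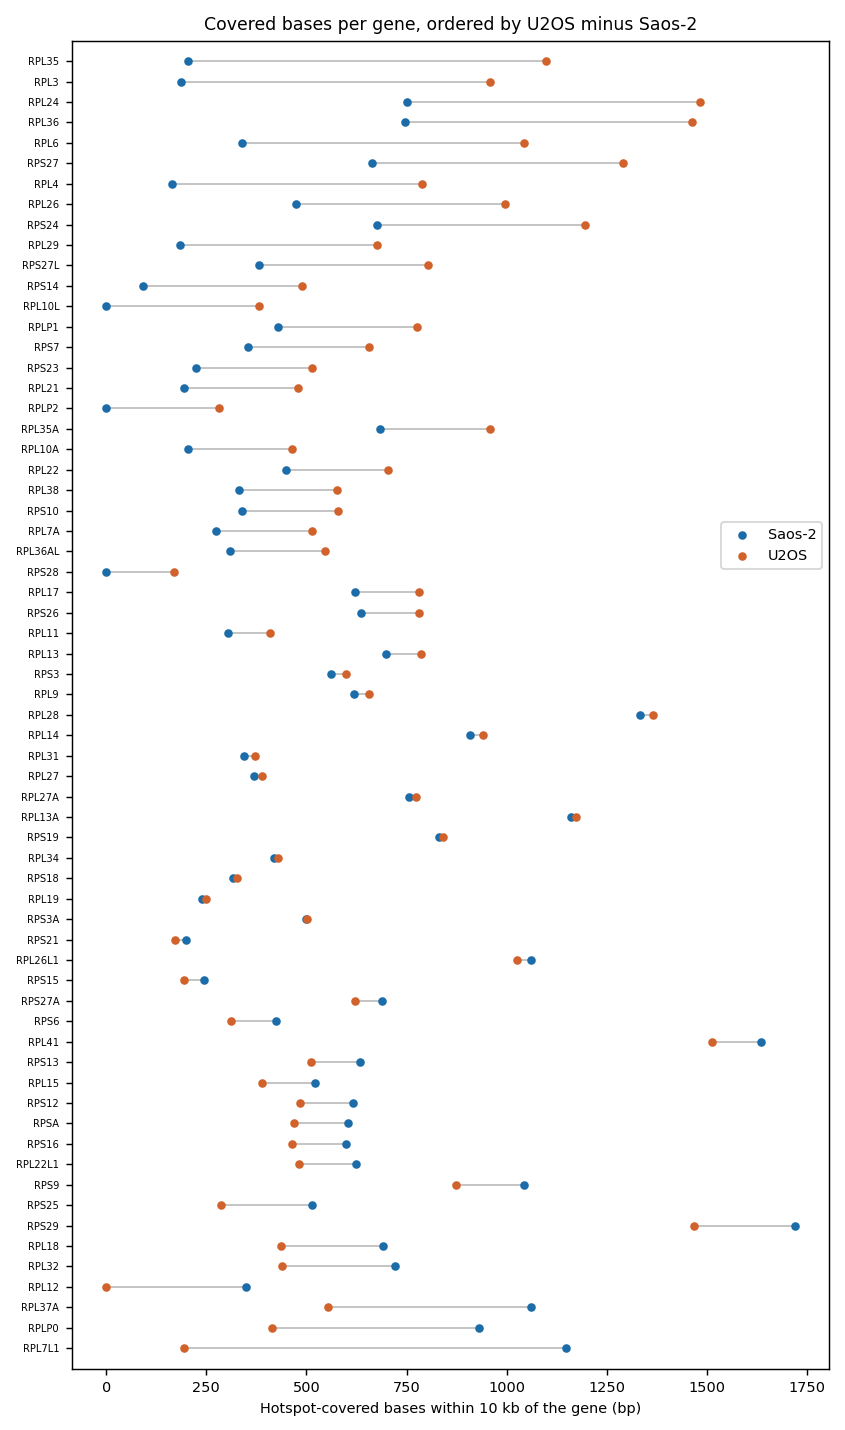
Bases under hotspots within 10 kb of each span (bp, horizontal axis) in Saos-2 and U2OS for each of the 64 members with a listed start, ordered by the difference U2OS minus Saos-2; a line joins the 2 values of a gene. RPL35 at the top has 203 and 1098 bp, and RPL7L1 at the bottom 1148 and 194 bp.

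Among the most covered surroundings were those of RPS29, with 1720 bp in Saos-2 beside 1468 bp in U2OS, and of RPL41, with 1634 and 1513 bp. RPL23A was among the most covered in U2OS only, with 1637 bp.

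The largest excess in U2OS was at RPL23A, a docking protein at the tunnel exit, where Saos-2 had 471 bp. It came from 6 further hotspots of 56 to 272 bp in U2OS, all over 1 kb from the gene, besides the one at the gene. RPL35 had 203 and 1098 bp, RPL3 187 and 959 bp, RPL24, which bridges the subunits, 750 and 1484 bp, and RPL36 746 and 1464 bp. At RPL24 the 3 Saos-2 sites were all called in U2OS, and each was wider there: the promoter hotspot had 261 bp (3.84) and 429 bp (14.4). All 5 are large-subunit genes; among all members the median difference was 63.5 bp for the 50 large-subunit and 11 bp for the 31 small-subunit genes.

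The largest excess in Saos-2 was at RPL7L1, with 1148 bp in Saos-2 beside 194 bp in U2OS. RPLP0 had 932 and 415 bp, although its promoter hotspots were of like width: 3 smaller Saos-2 hotspots of 128, 130 and 222 bp were not called in U2OS. RPL37A had 1060 and 555 bp, RPL12 350 and 0 bp, and RPL32 722 and 440 bp.

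For the 17 members with no listed start, the hotspots were read at the ends of the span. They include RPL5, RPL23A, RPL37, RPL39L, RPL3L and RPS15A. A hotspot lay within 250 bp of an end at 15 of them in Saos-2 (88.2%) and at 16 in U2OS (94.1%), beside 31.5% and 37.8% of the 4022 protein-coding genes with no listed start, and RPL3L was without one in both. RPL5, the partner of RPL11 in the 5S particle, had 25.2 over 563 bp in Saos-2 and 25.8 over 610 bp in U2OS. RPL37 had 11.97 over 331 bp and 26.4 over 422 bp, and RPS15A had 14.7 over 353 bp and 5.18 over 322 bp.

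Inside the gene and away from the start windows lay 12 hotspots in 9 of the 64 members in Saos-2 and 11 in 9 members in U2OS (14.1% in each line). Of all genes with a listed start, 41.3% and 43.9% held such a hotspot, and of those with a span in the range of the members 19.5% and 21.9%. The strongest lay in RPS29, with 556 bp (32.7) in Saos-2 beside 408 bp (25.4) in U2OS. The hotspot at the 1 listed start of this gene had 5.07 and 6.57, and LRR1 starts on the opposite strand within 1 kb of that start. Whether the inner RPS29 hotspot lies at a start that is not listed was not tested. RPL27A had 434 bp (10.95) and 469 bp (15.3) near its far end. In RPS3, a small-subunit protein also known for roles in DNA repair, the inner hotspot was 116 bp (2.02) in Saos-2 beside 332 bp (18.95) in U2OS. Of the members, 27 (33.3%; all genes 2.64%) hold at least 1 snoRNA gene, 58 snoRNA genes in all.

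Neighbouring genes share some of these sites. Another protein-coding gene started on the opposite strand within 1 kb of 14 members, such as RPL9 with LIAS and RPS18 with VPS52, and 11 of these 14 (78.6%) had a promoter hotspot in both lines. The share was 74.2% of the 2081 protein-coding genes with such a neighbour, and 85.9% of all members with a listed start. Another 14 members had no other protein-coding gene within 10 kb. Among these, 11 had a hotspot within 1 kb in Saos-2 (78.6%) and 13 in U2OS (92.9%), beside 60.2% and 68.3% of the 6443 protein-coding genes that stand alone in this way. More bases were covered in U2OS at 11 (78.6%), beside 52.1%. The latter share also counts any genes with no hotspot within 10 kb in either line.

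Members with and without the TOP tract at the start were set side by side. A promoter hotspot was called in 42 of the 44 with the tract in each line, and in 15 (Saos-2) and 18 (U2OS) of the 20 without. Its median significance was 8.25 with and 5.07 without the tract in Saos-2, and 8.65 and 8.95 in U2OS, so the order differed between the lines. For the 7 members with the YY1 word it was 3.54 in Saos-2, over the 6 with a promoter hotspot, and 8.08 in U2OS over all 7. For those without the word it was 7.56 over 51 members in Saos-2 and 8.83 over 53 in U2OS.

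Other genes of ribosome production had hotspots as often. Of 36 ribosome assembly genes, 35 had one within 1 kb in both lines; the exception was UBTF, a factor of RNA polymerase I, with 1 in Saos-2 and none in U2OS. Of 16 other genes with TOP mRNAs, 15 had one in both lines, and EEF2, the elongation factor for translocation, in neither. Among these, EEF1A1, which brings aminoacyl-tRNA to the ribosome, had a promoter hotspot of 470 bp (16.8) in Saos-2 beside 711 bp (10.1) in U2OS. The nucleolar genes NPM1 and NCL had 477 bp (14.5) and 559 bp (12.4) in Saos-2 beside 563 bp (16.2) and 426 bp (7.75) in U2OS. The pyrimidine tract was at a listed start in 9 of the 10 other TOP genes with a listed start.

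The mitochondrial ribosomal proteins, which serve the separate ribosome of mitochondria, were the closest comparison. Of their 77 genes, 68 (88.3%) had a hotspot within 1 kb in Saos-2 and 71 (92.2%) in U2OS, and 63 of the 69 with a listed start had a promoter hotspot in each line. These shares lie within the intervals of the cytosolic genes. Their start windows differed: 8.70% held the pyrimidine tract at the start, and 30.4% held the YY1 word against 10.9% of the cytosolic genes. Among the members, 18 of the 19 genes altered in Diamond-Blackfan anaemia, an inherited red cell aplasia, had a hotspot within 1 kb in both lines, and RPS28 in U2OS only. This is close to the 74 of 81 (91.4%) over all members, beside 61.1% of all genes.

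**Figure D5:**
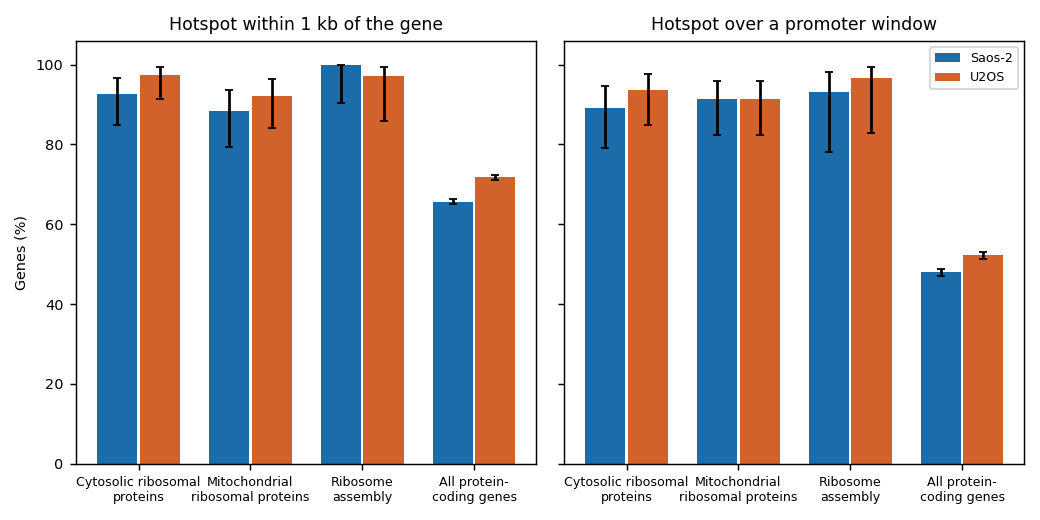
Share of genes (%, vertical axis) with a hotspot within 1 kb of the gene (left) or over a listed start window (right) in Saos-2 and U2OS, for 4 gene sets; bars give the share and lines the Wilson 95% interval. The ribosomal and assembly sets stand between 88.3% and 100%, and all protein-coding genes between 47.9% and 71.8%.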

How the data were processed

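DNase-seq was read in 1 library each of Saos-2 and U2OS. Per the submitters' processing notes, Trimmomatic 0.38, BWA 0.7.15 and the hg38 build were used; the hotspot caller and the treatment of duplicate and multiply mapping reads are not given in the sources used here. The deposited values per hotspot are the authors' −log10 significance, taken as such because its lowest value is the −log10 of 0.05, and a deposited score equal to 10 times that value within 0.5, which was not used. Depth per library is unknown. Gene spans and start windows came from RefSeq (GRCh38.p14), and BED starts were made 1-based. Hotspots were assigned to genes by at least 1 bp of overlap with the span, the span extended by 1 or 10 kb, or a start window of 250 bases before to 50 after the start. Computation used Python 3.11.15, pandas 2.3.3, numpy 2.4.6 and scipy 1.17.1, and the counting was tested on simulated data. Each list belongs to 1 sample, so hotspots were called per library.

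The members and gene lists were chosen with earlier results of these data known. Genes were named by a rule: members with no hotspot within 1 kb or at the promoter in a line; the 5 highest and 5 lowest promoter hotspots per line by significance; the 5 largest width ratios and the 5 largest differences of covered bases in each direction; the 3 most covered members per line; the paralogues; and RPLP0, RPSA, RPL3, RPL5, RPL11, RPS6, RPS19 and RPS26. Some items the rule selects are not reported here. Others, such as RPL37, RPS15A, RPL27A and RPS3, were named after their values were seen. Alternatives were other windows, stricter or equal-length lists, merged hotspots, other overlaps, isolated genes and members without paralogues. The outermost start alone and a background of genes of like span were chosen after seeing the data.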

Additional observations from a re-analysis of the deposited data

How the results depend on the processing

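Over 12 results and 11 settings, 62 values were computed, and 47 of them stayed within the interval of the main share or within 1.5-fold of the main median. With the span alone, in place of 1 kb, the share of members with a hotspot was 79.0% in Saos-2 and 90.1% in U2OS. For the 14 members with no other protein-coding gene within 10 kb, the share within 1 kb in Saos-2 was 78.6%, and 78.6% had more covered bases in U2OS and 21.4% in Saos-2. In the top 50% of each list by significance, 71.6% (Saos-2) and 83.95% (U2OS) of members had a hotspot within 1 kb, 67.2% and 75% had one over the promoter window, and 17.3% had one in U2OS only. With hotspots of at least 200 bp these shares were 82.7% and 88.9% within 1 kb, and 78.1% and 84.4% at the promoter. When a hotspot had to cover at least 150 bp of the window, the Saos-2 promoter share was 73.4%. Stricter settings drop hotspots by construction; other causes were not tested. The shares of all genes dropped too: within 1 kb to 50.6% and 56.5% in the top 50% lists, with 12.7% in U2OS only, and to 56.1% and 63.5% with hotspots of at least 200 bp. At the promoter the shares of all genes were 35.6% and 39.5% in the top 50% lists. They were 40.5% and 45.8% with hotspots of at least 200 bp. With at least 150 bp of the window covered, the Saos-2 promoter share of all genes was 41.3%. With the longer list shortened to the length of the other, more bases were covered in U2OS at 56.8% and in Saos-2 at 40.7% of members. The shares of all genes were 48.5% and 36.1%, and they also count genes with no hotspot in either list. No paired analysis was possible because each line has 1 library, and no replicate could be left out. Depth is unknown, so weak hotspots called in 1 list only may lie below the threshold of the other. Where reads match several places, hotspots over a member or its pseudogenes may be affected; 74 of 81 members have at least 1 pseudogene named after them, and the effect was not tested.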

Other observations

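Pseudogenes of the family, most of them known as copies of the mRNAs inserted elsewhere in the genome without the promoter of the parent gene, were read in the same lists. RefSeq lists 1913 on chromosomes 1 to 22, taken by symbol whatever their class, with a median span of 538 bp beside 775 bp for 13608 other pseudogenes, among them 134 named after RPL21, 94 after RPL23A, 78 after RPL7A and 66 after RPSA. A hotspot lay over the span of 22 in Saos-2 (1.15%, Wilson 95% interval 0.761% to 1.74%) and of 26 in U2OS (1.36%, interval 0.929% to 1.98%). Among the other pseudogenes the shares were 3.79% and 4.37%. Their spans have a longer tail, with a 90th percentile of 5132 bp beside 951 bp for the family. What span length adds to the difference in shares was not tested. Within 1 kb the shares were 3.87% and 4.91% for the family, beside 6.44% and 7.50% for the others. In the subset more than 10 kb from any protein-coding gene, 9 and 10 of 870 had one (1.03% and 1.15%), beside 3.39% and 4.34% of 6952 other pseudogenes.

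In all, 40 pseudogenes of the family had a hotspot in either line, and 8 in both. The strongest was over RPS20P29, within 10 kb of the glucose transporter gene SLC2A14, with 544 bp (30.2) in Saos-2 beside 555 bp (57.0) in U2OS. RPL15P22, more than 10 kb from any protein-coding gene, had 349 bp (9.54) in Saos-2 beside 424 bp (28.6) in U2OS. RPSAP52, which lies by HMGA2 and has a span of 68955 bp, the longest of the family, held 1 hotspot in Saos-2 and 9 in U2OS. RPS27P29 had 898 bp (18.3) in Saos-2 and none in U2OS. These 4 were chosen after their values were seen.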
